A study of Homo sapiens with 8 samples.

Results

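MUC1, SLPI, SUSD2, FAM83A, LCN2, ELF3, WFDC2 and CEACAM6 are 8 genes of the 23368 in the deposited table. They were taken as a named set of secretory and airway epithelial genes, of which several were higher on brain slices, and more so with L1CAM shRNA. They were thus selected on measured values. These were the slice against dish differences with each shRNA, the difference between these responses, and the difference between the shRNAs on the slice. Such values are given here as a description and not as a test. All 8 genes have a line in the table, and 4 of them, MUC1, SLPI, SUSD2 and FAM83A, had a mean normalized count of at least 10 over the 8 libraries and entered the test. CEACAM6 averaged less, LCN2 and ELF3 had at most 2 reads in a library, and WFDC2 had 0 reads in all 8.

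The cells were H2030-BrM, a brain-metastatic derivative of the H2030 human lung adenocarcinoma line. All of them carried EGFP-Rpl10a, a ribosomal protein fused to a green fluorescent protein, so that an EGFP antibody recovered the messenger RNA on the cancer cells' ribosomes, out of a mixture with mouse brain tissue. The 4 groups of 2 libraries were L1CAM shRNA on a mouse brain slice for 48 h (shL1CAM_slice), luciferase control shRNA on a slice for 48 h (shControl_slice), L1CAM shRNA in a petri dish at 0 h (shL1CAM_dish) and luciferase control shRNA in a dish at 0 h (shControl_dish). The study asked which transcriptional programs depend on L1CAM, a cell adhesion molecule, when metastatic cells enter brain tissue. Dish and slice cultures also had different media and serum levels, and the slice added 48 h, so effects of tissue, medium and time cannot be told apart. The libraries are labelled as biological replicates of 1 derivative line, but nothing says that they came from separate cultures, so a p-value here covers no more than the spread among these libraries.

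Secretory cells of the airway coat the surface with mucins, and release antimicrobial proteins and protease inhibitors that limit tissue damage by neutrophil enzymes. MUC1 is a transmembrane mucin of glandular surfaces, SLPI and WFDC2 are secreted proteins with whey acidic protein (WAP) domains, and LCN2 is a secreted lipocalin that withholds iron from bacteria. CEACAM6 is a membrane-anchored adhesion molecule, FAM83A an intracellular protein linked to growth factor signalling in cancer cells, and ELF3 an epithelial transcription factor of the ETS family. Many lung adenocarcinomas express several of them.

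The libraries held between 13486212 and 16734651 recovered reads. A count of 3 reads, the upper limit that 0 reads allows, equalled a normalized count of 2.75 to 3.57, for counting error only. L1CAM fell in shL1CAM cells, with 74.7 and 65.4 normalized counts in shL1CAM_slice against 451 and 438 in shControl_slice (log2 fold change -2.65, limma adjusted p = 0.00164), and 126 and 88.3 in shL1CAM_dish against 482 and 440.4 in shControl_dish (-2.11, adjusted p = 0.00865). Leaving out a single dish library, whichever of the 4, raised the adjusted p of the dish difference above 0.05. The replicates of shL1CAM_slice stood further apart than those of the other groups. Their log2 difference had an SD of 0.637 over the tested genes, against 0.218 to 0.303 in the other groups, and it moved with transcript length, short transcripts being higher in replicate 2.

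The label of airway secretory cells held for a small number of genes. Of 28 further airway secretory and goblet genes listed, 27 were in the table and 2 were tested, 8 had no read in any library, and 21 had at most 3 reads in every library. The club cell secretoglobin SCGB1A1, the gel-forming mucin MUC5B and the mucin-folding factor AGR2 each had at most 1.19 normalized counts in a library. MUC5AC had no line in the table under that symbol. The surfactant genes SFTPB and SFTPC, the ciliated cell regulator FOXJ1 and the basal keratin KRT5 lay between 0 and 2.83. NKX2-1, a lung lineage transcription factor, ranged from 3.21 to 16.5, and TP63, a basal cell transcription factor, from 1.19 to 18.2. By contrast the epithelial keratins KRT8 and KRT18 had between 3460.0 and 6002 normalized counts in every library. They are 2 of 6 listed general epithelial markers and do not stand for the list. Of the 6, 4 were tested, and 2 were low in the dish, with a sum of 5.35 to 15.1 in each library. The 8 genes are therefore called by their names below, and not by a cell type.

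**Figure D1:**
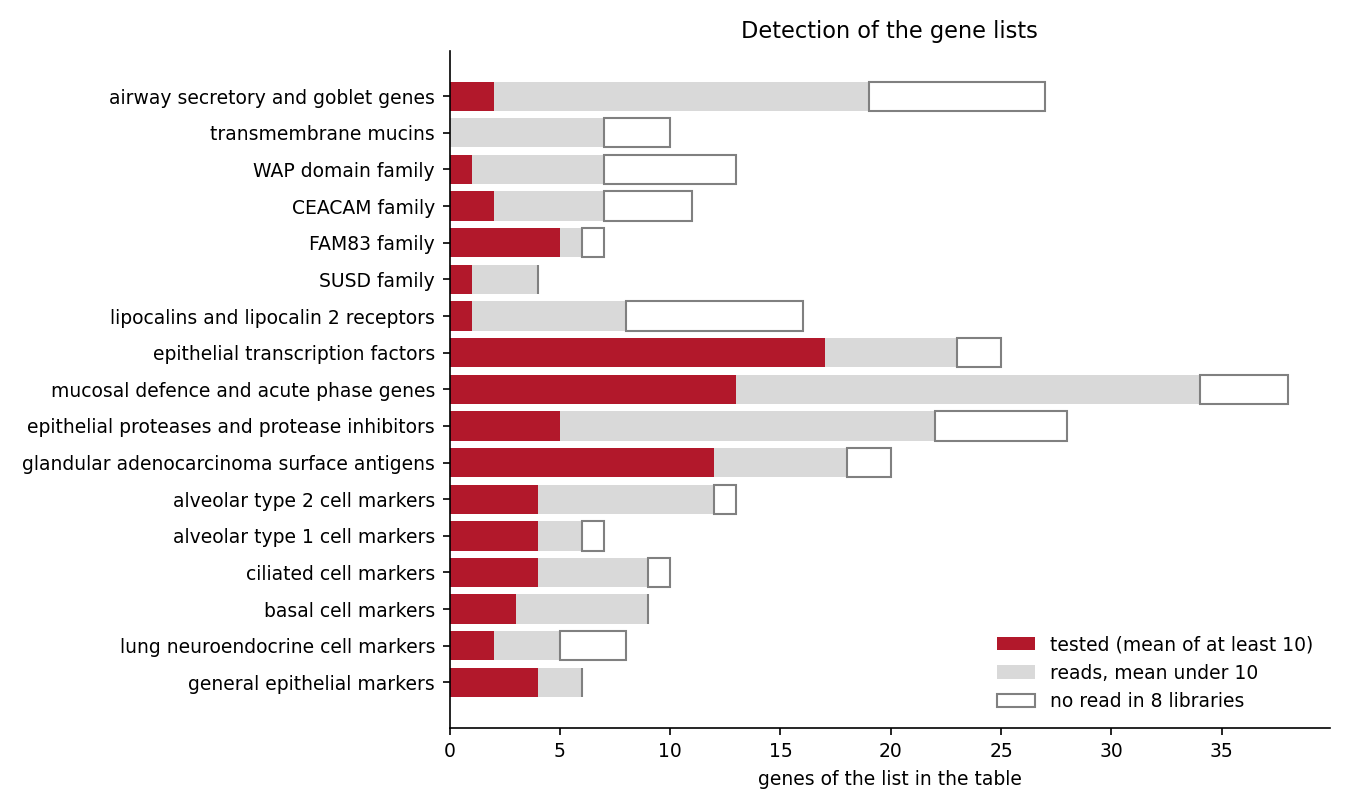
Detection of the gene lists, drawn as the number of genes of each list in the table that were tested (red, mean of at least 10), that had reads with a mean under 10 (grey), or that had no read in 8 libraries (white). Of the 27 airway secretory and goblet genes 2 were tested, and of the 10 transmembrane mucins 0, against 17 of 25 epithelial transcription factors.

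MUC1 was higher in every slice library than in every dish library. It had 663 and 973 normalized counts in shL1CAM_slice against 1081 and 1069.9 in shControl_slice, and 317 and 258 in shL1CAM_dish against 299 and 287 in shControl_dish. The group means were 2.85 times as high on the slice as in the dish with L1CAM shRNA and 3.67 times with control shRNA, so that this gene was not more raised with L1CAM shRNA. On the scale of log2(normalized count + 1), used for every fold change below, these differences were 1.49 and 1.87 (SE 0.20 each). On the slice both shL1CAM libraries lay under both control libraries, and in the dish the shRNA groups overlapped.

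SLPI, the inhibitor of neutrophil elastase, had the highest normalized counts of the 4 tested genes in every library. It had 2869.7 and 5041 normalized counts in shL1CAM_slice against 4552 and 4618 in shControl_slice, and 821 and 437 in shL1CAM_dish against 973 and 1501 in shControl_dish. The log2 fold change of slice over dish was 2.67 with L1CAM shRNA and 1.92 with control shRNA (SE 0.35 each). The shRNA groups overlapped on the slice and did not overlap in the dish, where both shL1CAM libraries were lower. The slice levels with L1CAM and control shRNA averaged 3955 and 4585, so the larger response with L1CAM shRNA went with the lower dish level, not with a higher slice level. The replicates of shL1CAM_slice differed by 0.81 (log2) for SLPI, beside a median of 0.74 over 158 genes of like transcript length, and the part of that length trend in the value was not tested.

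SUSD2, a membrane protein with a sushi domain, had the largest difference between the slice groups of the 4. It had 1604 and 2124 normalized counts in shL1CAM_slice against 646 and 643 in shControl_slice, and 318 and 83.3 in shL1CAM_dish against 68.5 and 147 in shControl_dish. The slice mean was 2.89 times as high with L1CAM shRNA as with control shRNA. Slice over dish came to 3.49 with L1CAM shRNA and 2.67 with control shRNA on the log2 scale (SE 0.55 each). The value with L1CAM shRNA was 4.45 without shL1CAM_dish replicate 1 and 2.53 without replicate 2. In the dish the shRNA groups overlapped.

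FAM83A had the lowest dish counts of the 4. It had 325 and 366 normalized counts in shL1CAM_slice against 265 and 233 in shControl_slice, and 12.8 and 6.02 in shL1CAM_dish against 30.3 and 26.4 in shControl_dish. Slice over dish was 5.13 with L1CAM shRNA and 3.09 with control shRNA on the log2 scale (SE 0.31 each), ratios of group means of 36.7 and 8.79. The lowest values over 15 alternative fits were 4.21 and 2.76 in that order. On the slice both shL1CAM libraries were higher than both control libraries, and in the dish both were lower. With a pseudocount of 10 in place of 1, the dish difference between the shRNAs was -1.003 in place of -1.57 on the log2 scale.

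**Figure D2:**
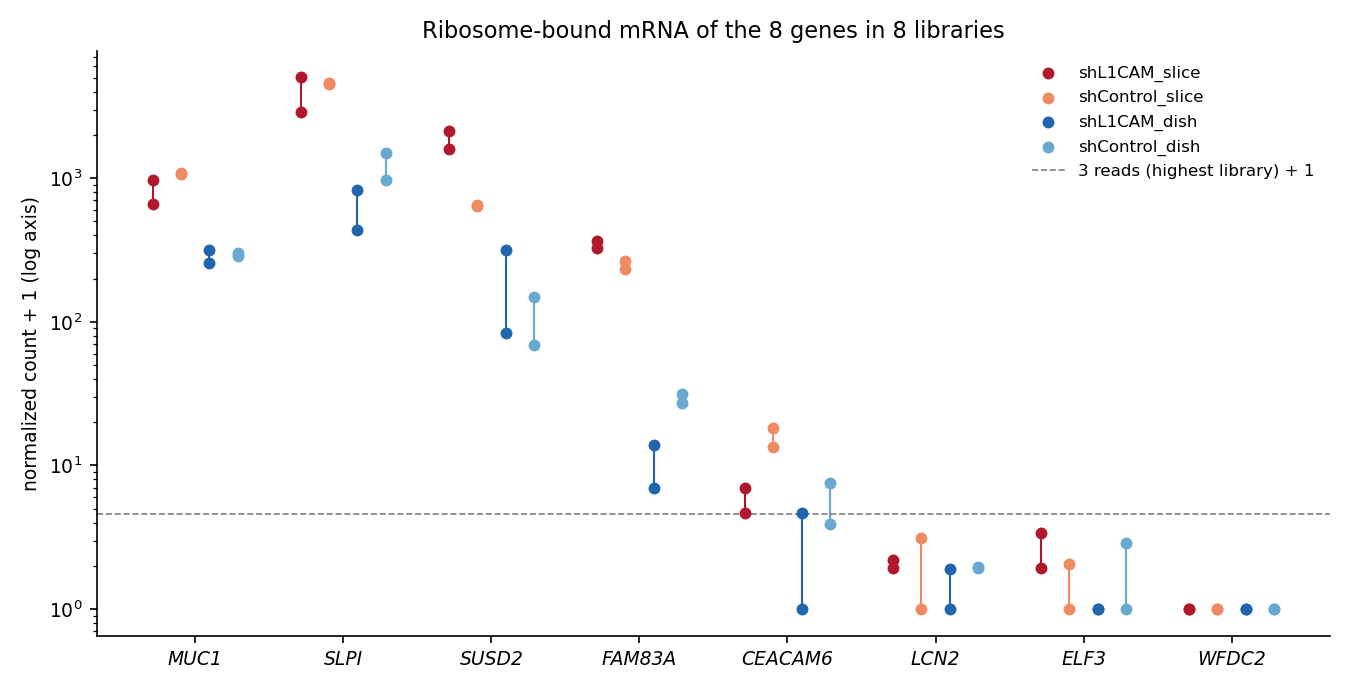
Normalized counts plus 1 on a log axis for each of the 8 genes in the 8 libraries, as points joined within a group, with the groups from left to right shL1CAM_slice, shControl_slice, shL1CAM_dish and shControl_dish. MUC1, SLPI, SUSD2 and FAM83A are higher in all 4 slice libraries than in all 4 dish libraries, CEACAM6 lies near the dashed line of 3 reads, and LCN2, ELF3 and WFDC2 lie under it.

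The other 4 genes gave few or no reads. CEACAM6 had 4 and 5 reads in shL1CAM_slice against 13 and 16 in shControl_slice, and 4 and 0 in shL1CAM_dish against 3 and 7 in shControl_dish. As normalized counts these are 3.69 and 5.95 in shL1CAM_slice against 12.4 and 17.1 in shControl_slice, and 3.66 and 0 in shL1CAM_dish against 2.93 and 6.60 in shControl_dish, so the 2 control slice libraries were the highest. LCN2 had between 0 and 2 reads in every library and ELF3 likewise, and with 0 reads in a library the limit of 3 reads applies. WFDC2 had 0 reads in all 8 libraries, which allows at most 3.57 normalized counts in any of them. A slice response of these 3 genes was not detectable at this depth.

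Levels were compared between genes per kilobase of transcript, where SLPI stood highest of the 4 tested genes. Its only annotated coding transcript has 596 bases, and its level per kilobase was 6637 in shL1CAM_slice and 7693 in shControl_slice, above 98.6% and 99.1% of genes with a length, and 1055 in shL1CAM_dish and 2076 in shControl_dish. SUSD2 reached 548 per kilobase in shL1CAM_slice and 189 in shControl_slice, against 58.9 in shL1CAM_dish and 31.7 in shControl_dish. MUC1 has coding transcripts of 516 to 4170 bases, and depending on the transcript its level was 196 to 1586 per kilobase in shL1CAM_slice and 258 to 2084 in shControl_slice. It was therefore above SUSD2 in shControl_slice for any of these lengths, while the order in shL1CAM_slice depends on the length. FAM83A, with transcripts of 1604 to 5393 bases, lay at 64.1 to 215 in shL1CAM_slice and at 1.75 to 5.88 in shL1CAM_dish.

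Promoters were looked up for all 8 genes, and the 250 bases before the RefSeq start (GRCh38.p14) were used for the 5 that matched. Shown here are the promoter of MUC1, the tested gene with a match, and those of CEACAM6 and LCN2, whose ribosome-bound reads were few or at 0. Capitals mark matches on either strand to a TATA box (TATAAA), a GC box (GGGCGG), and ETS (AGGAAG), C/EBP (TTGCNNAA), NF-kB and AP-1 (TGANTCA) motifs.
MUC1, chr1:155192916-155193165, minus strand: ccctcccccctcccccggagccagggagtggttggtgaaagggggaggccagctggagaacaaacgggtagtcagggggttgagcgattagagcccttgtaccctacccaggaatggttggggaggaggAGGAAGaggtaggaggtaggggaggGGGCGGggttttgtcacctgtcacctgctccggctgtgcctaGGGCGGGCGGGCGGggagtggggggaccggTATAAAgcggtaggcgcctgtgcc
CEACAM6, chr19:41755280-41755529, plus strand: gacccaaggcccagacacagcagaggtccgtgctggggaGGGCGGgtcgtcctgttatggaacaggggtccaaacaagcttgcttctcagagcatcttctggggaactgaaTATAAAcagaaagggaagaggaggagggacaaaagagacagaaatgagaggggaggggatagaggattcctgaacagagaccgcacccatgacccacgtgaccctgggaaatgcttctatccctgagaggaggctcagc
LCN2, chr9:128149203-128149452, plus strand: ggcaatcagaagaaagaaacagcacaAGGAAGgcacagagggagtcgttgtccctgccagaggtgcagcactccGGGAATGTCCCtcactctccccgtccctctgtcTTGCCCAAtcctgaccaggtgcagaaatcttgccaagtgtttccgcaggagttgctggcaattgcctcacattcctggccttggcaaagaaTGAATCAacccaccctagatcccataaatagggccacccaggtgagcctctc

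In MUC1 the TATA match began 24 bases before the start and the 4 GC box matches 96, 54, 50 and 46 bases before it, the last 3 overlapping. The ETS match lay 121 bases upstream. The CEACAM6 window held a GC box 211 bases and a TATA match 139 bases before the start. The LCN2 window held no TATA or GC box match, but an ETS match at 224 bases, a pair of overlapping NF-kB matches at 176 and 175, a C/EBP match at 143 and an AP-1 match at 52. Such letters are common, since TATAAA occurred in 11.1% of 27305 promoter windows of the same length, GGGCGG in 42.3%, AGGAAG in 28.7%, TTGCNNAA in 9.13%, the NF-kB motif in 22.1% and TGANTCA in 6.6%. A match is a description of the sequence and not a site in use.

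In the fit over 13010 genes, the 4 tested genes passed the threshold of adjusted p under 0.05 as higher on the slice with each shRNA, where 10.1% of tested genes passed as higher with L1CAM shRNA and 6.8% with control shRNA. Since these contrasts chose the genes, the counts are a description. In each of them, both slice libraries lay above both dish libraries for the 4 tested genes, as they did for 28% of tested genes with L1CAM shRNA and 39.8% with control shRNA. The count with L1CAM shRNA was 4 without any 1 of the 8 libraries. With control shRNA it was 0 without shControl_dish replicate 1, and 2 (MUC1 and FAM83A) without shControl_dish replicate 2 or either shControl_slice replicate, while over all genes 7, 128, 65 and 58 passed in those fits, against 1930 with all libraries. More RNA per cell, a larger part of it on ribosomes and a larger share of cells that express a gene cannot be told apart in these bulk libraries.

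**Figure D3:**
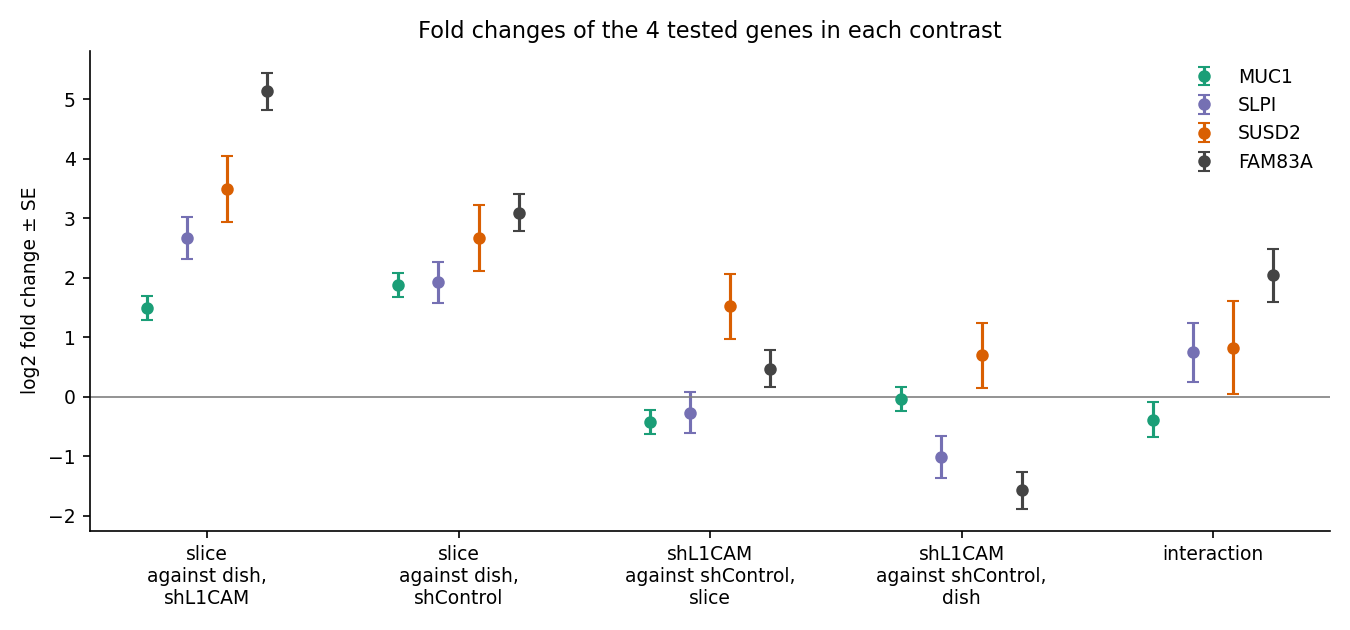
Log2 fold changes of the 4 tested genes in 5 contrasts of 1 limma fit, as points with SE bars. The slice responses lie between 1.49 and 5.13 with L1CAM shRNA and between 1.87 and 3.09 with control shRNA, and the knockdown differences lie on both sides of 0.

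Between the shRNAs on the slice, the 4 tested genes did not move alike. The log2 fold change of shL1CAM_slice over shControl_slice was 1.52 ± 0.55 (SE) for SUSD2, 0.47 ± 0.31 for FAM83A, -0.27 ± 0.35 for SLPI and -0.42 ± 0.20 for MUC1. Of the 4, 0 passed the threshold by limma, edgeR or DESeq2, beside 0.646% of tested genes by limma. At an unadjusted p under 0.05, these tools found 1, 2 and 1 of them, and 2384, 2381 and 2246 of all 13010 genes. SUSD2 and FAM83A did not overlap and were higher, as were 26% of tested genes, and MUC1 did not overlap and was lower, as were 24.1%. The choice of genes used this contrast as well, so the values of the 4 genes in it are a description. Without shL1CAM_slice replicate 1 SUSD2 passed at 1.72, and without replicate 2 MUC1 passed at -0.70, while 6896 and 607 genes passed in those fits against 84.

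In the dish, before contact with brain tissue, FAM83A differed by -1.57 ± 0.31 (SE) on the log2 scale, L1CAM over control shRNA (limma adjusted p = 0.0906), and both shL1CAM libraries lay under both control libraries. SLPI differed by -1.01 ± 0.35 (adjusted p = 0.374), with groups that did not overlap either. SUSD2 differed by 0.69 ± 0.55 (adjusted p = 0.798) and MUC1 by -0.03 ± 0.20 (adjusted p = 0.985), both with overlapping groups. The dish libraries too are those of the contrasts that chose the genes. By limma and by edgeR 0 of the 4 passed, and by DESeq2 FAM83A passed alone. Over all tested genes 0.307% passed by limma, and 184 genes by DESeq2. At an unadjusted p under 0.05, each tool found 2 of the 4. Of all 13010 genes, limma, edgeR and DESeq2 found 1217, 1246 and 1037. With 1 library left out, the difference ran from -2.06 to -1.08 for FAM83A and from -1.47 to -0.56 for SLPI. The shL1CAM_slice libraries take no part in this contrast and enter it only through the spread shared by all groups. Calls made without 1 of them rest on that spread and are no result about these genes. Lower groups that did not overlap were found for 25.6% of tested genes.

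The difference between the slice responses, L1CAM shRNA minus control shRNA, was 2.04 ± 0.44 for FAM83A, 0.82 for SUSD2, 0.74 for SLPI and -0.39 for MUC1 on the log2 scale. For FAM83A it combined a dish difference of -1.57 with a slice difference of 0.47, for SLPI a dish difference of -1.01 with a slice difference of -0.27, and for SUSD2 0.69 with 1.52. FAM83A ranked 2 of 13010 genes from the highest, and its lowest value over 15 alternative fits was 1.46. No gene passed for this difference by limma, edgeR or DESeq2, with 162, 157 and 78 genes at an unadjusted p under 0.05. Without shL1CAM_slice replicate 1, 4136 genes passed. The values of the 4 genes are a description, since this difference was used to choose them.

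The spread between dish replicates was large for 3 of the 4 tested genes. Replicate 2 of shL1CAM_dish was lower than replicate 1 by 1.92 (log2) for SUSD2, where 0.0307% of tested genes had a larger difference, and by 0.98 for FAM83A and 0.91 for SLPI, where 1.19% and 1.56% had one. In shControl_dish, replicate 2 was higher by 1.09 for SUSD2 and by 0.62 for SLPI, and lower by 0.19 for FAM83A. SUSD2 and SLPI thus moved together between dish replicates, down in shL1CAM_dish and up in shControl_dish. Such opposite shifts were not particular to them, since replicate differences in the 2 dish groups had a Pearson r of -0.38 over 13010 genes. MUC1 was lower in replicate 2 by 0.30 in shL1CAM_dish and by 0.06 in shControl_dish. In shControl_slice the replicates of the 4 genes lay within 0.19 of each other.

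Relatives of the 8 genes mostly had few reads, and those tested did not share 1 response. The elastase inhibitor PI3 was the 1 tested gene of the WAP family (14 listed, 13 in the table, 11 with at most 3 reads in every library). PI3, which lies 3 genes from SLPI on chromosome 20, had 149 and 263 normalized counts in shL1CAM_slice against 109 and 132 in shControl_slice, and 20.2 and 19.1 in shL1CAM_dish against 24.5 and 39.6 in shControl_dish. It rose on the slice by 3.27 with L1CAM shRNA (limma adjusted p = 0.00133) and by 1.91 with control shRNA (adjusted p = 0.00928), which was the direction of SLPI. In the dish it differed between the shRNAs by -0.64 (adjusted p = 0.604).

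Among the transmembrane mucins 0 of 10 genes in the table entered the test. MUC16, the CA125 antigen and chosen here after its values were seen, had 5.53 and 7.14 normalized counts in shL1CAM_slice against 12.4 and 27.8 in shControl_slice, and 3.66 and 0 in shL1CAM_dish against 0.98 and 3.77 in shControl_dish. Like CEACAM6, it was highest in the 2 control slice libraries. Of the CEACAM family, with 11 genes listed and 2 tested, the adhesion molecule CEACAM1 showed the same order at a higher level, with 19.4 and 34.5 normalized counts in shL1CAM_slice against 97.4 and 88.8 in shControl_slice, and 18.3 and 7.03 in shL1CAM_dish against 17.6 and 34.9 in shControl_dish. CEACAM1 rose on the slice with control shRNA (1.86, limma adjusted p = 0.0363), and had 1.11 with L1CAM shRNA (adjusted p = 0.133). Between the shRNAs on the slice it differed by -1.81, which did not pass by limma (adjusted p = 0.154) and passed by DESeq2.

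Of the FAM83 family 5 of 7 listed genes were tested. FAM83D, a mitotic spindle protein, fell on the slice by 1.06 with L1CAM shRNA (adjusted p = 0.00550) and by 1.02 with control shRNA (adjusted p = 0.00864), against the direction of FAM83A. Over all tested genes, 11.2% passed as lower with L1CAM shRNA and 8.03% with control shRNA. FAM83E rose with L1CAM shRNA (2.36, adjusted p = 0.0267) and had 1.26 with control shRNA (adjusted p = 0.194), and the other 3 passed in neither. In the dish FAM83E had 29.3 and 6.02 normalized counts in shL1CAM_dish and 35.2 and 66.96 in shControl_dish, and its difference of -1.77 did not pass (adjusted p = 0.374). The SUSD family had 1 tested gene of 4, SUSD5, and the list of lipocalins and lipocalin 2 receptors 1 of 16, SLC22A17, and neither passed for slice against dish by limma, edgeR or DESeq2, nor at an unadjusted p under 0.05.

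The 2 tested airway secretory genes were CP and ALDH3A1. ALDH3A1, an aldehyde dehydrogenase of airway and corneal epithelium, had 23.1 and 44.0 normalized counts in shL1CAM_slice against 28.6 and 27.8 in shControl_slice, and 1.83 and 0 in shL1CAM_dish against 0.98 and 0.94 in shControl_dish. It rose by 4.29 with L1CAM shRNA (adjusted p = 0.00290) and 3.90 with control shRNA (adjusted p = 0.00559), values that depend on the pseudocount because the dish libraries held 0 to 2 reads, and were 1.96 and 1.80 with a pseudocount of 10. ALDH3A1 reached the mean of 10 through its slice libraries alone, so its calls are not independent of the filter. CP passed in neither.

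Of the 25 epithelial transcription factors 17 were tested. With L1CAM shRNA 6 rose and 1 fell on the slice, and with control shRNA 3 rose and 1 fell, where over all tested genes 10.1% rose and 11.2% fell with L1CAM shRNA and 6.8% and 8.03% with control shRNA. KLF4 rose by 1.05 and 0.73 with L1CAM and control shRNA, and the CCAAT-binding factors CEBPB (1.13 and 1.28) and CEBPD (1.26 and 1.09) rose in both. SOX2 (1.81 and 0.86), CEBPA (1.18 and 0.66) and FOXA1 (0.63 and 0.48) passed with L1CAM shRNA and not with control shRNA, and the difference was called for no gene. TFCP2L1 fell by 1.12 and 0.96. EHF, an epithelial ETS factor like ELF3, and GRHL2, another epithelial factor, had at most 2.14 normalized counts in a library. The list's median fold change was 0.15 with L1CAM shRNA and 0.35 with control shRNA, beside -0.0019 and 0.013 over all tested genes.

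Of the 20 surface antigens of glandular adenocarcinomas 12 were tested, 7 rising and 1 falling with L1CAM shRNA (10.1% and 11.2% of all tested genes) and 3 rising and 1 falling with control shRNA (6.8% and 8.03%). The tight junction gene CLDN4 had 58.1 and 65.4 normalized counts in shL1CAM_slice against 49.7 and 64.2 in shControl_slice, and 9.16 and 7.03 in shL1CAM_dish against 7.83 and 5.66 in shControl_dish. It rose by 2.79 and 2.91 with L1CAM and control shRNA, and the tetraspanin TSPAN1 by 1.84 and 1.73. The lowest value of CLDN4 over 14 alternative fits was 1.99 with each shRNA. The surface glycoprotein CD24 had 80.3 and 76.1 normalized counts in shL1CAM_slice against 22.9 and 6.42 in shControl_slice, and 10.1 and 14.1 in shL1CAM_dish against 2.93 and 2.83 in shControl_dish, which was an order like that of SUSD2 on the slice. CD24 rose by 2.62 and 1.78 on the slice. CLDN4 and CD24 averaged under 10 in the dish libraries and entered the test through the slice libraries, so the filter favours a rise in both. Mesothelin (MSLN, chosen after its values were seen) rose with L1CAM shRNA (1.24) and had 0.93 with control shRNA, and the receptor GPRC5A fell by 0.91 and 0.96. The median was 0.82 with L1CAM shRNA and 0.63 with control shRNA.

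**Figure D4:**
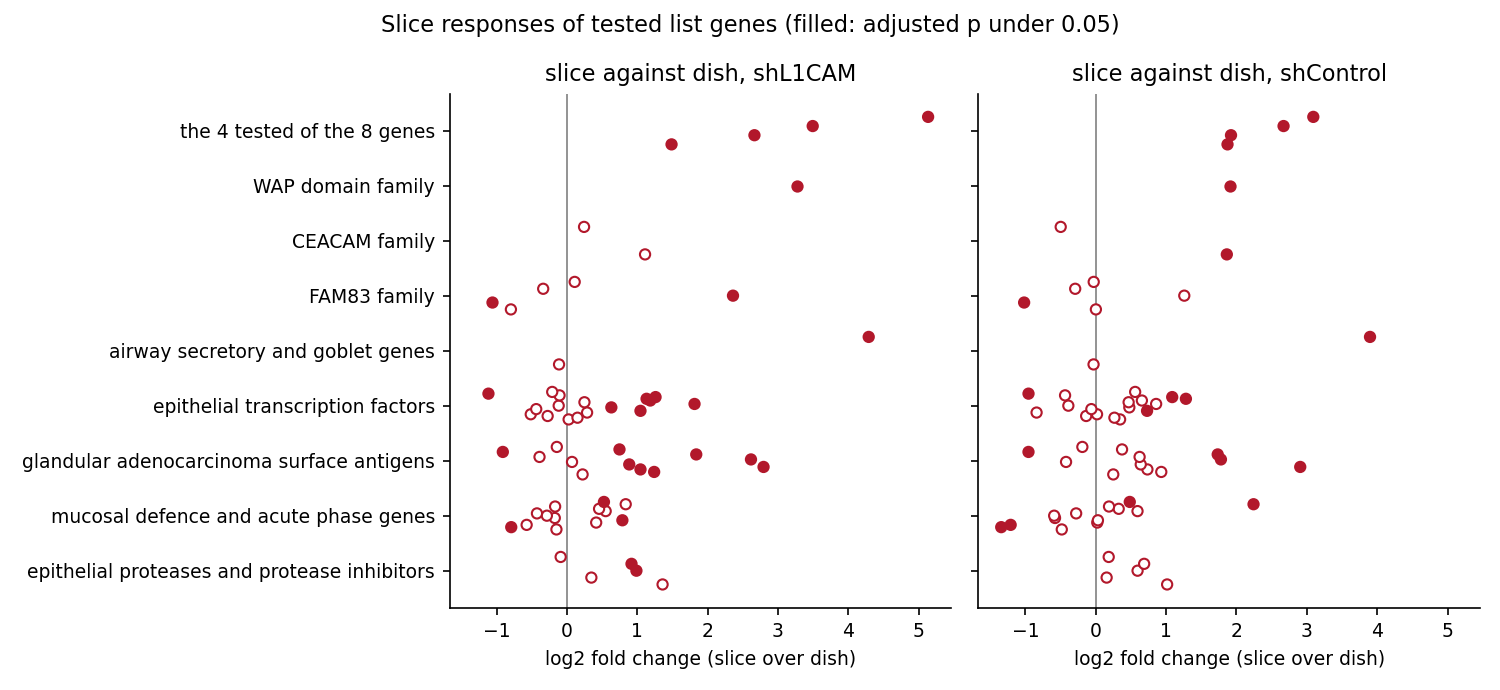
Log2 fold changes of slice over dish for the tested genes of 9 sets, with L1CAM shRNA on the left and control shRNA on the right, and filled points for adjusted p under 0.05. The 4 tested genes lie between 1.49 and 5.13 on the left and 1.87 and 3.09 on the right, while the mucosal defence and transcription factor lists spread to both sides of 0.

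Mucosal defence and acute phase genes were called in both directions. Of 38 listed, 13 were tested, of which 2 rose and 1 fell with L1CAM shRNA and 2 rose and 2 fell with control shRNA, with medians of -0.15 and 0.02. Beside 10.1% rising and 11.2% falling over all tested genes with L1CAM shRNA, and 6.8% and 8.03% with control shRNA, such counts are no result about the list. The neutrophil chemokine CXCL1 fell by 0.79 and 1.34 with L1CAM and control shRNA. CXCL2 fell by 1.21 with control shRNA and had -0.57 with L1CAM shRNA. PTGES, a prostaglandin synthase, rose by 0.53 and 0.48. The death ligand TNFSF10 rose with control shRNA (2.24, or 1.00 with a pseudocount of 10), and had 0.84 with L1CAM shRNA, and it too averaged under 10 in the dish. IL8, another neutrophil chemokine, rose with L1CAM shRNA on the slice (0.79), and in the dish it was lower with L1CAM than with control shRNA, at 1286 and 1520.4 against 2986 and 3055 normalized counts (-1.11, adjusted p = 0.0261). This difference of IL8 did not pass without any 1 of the 4 dish or the 2 shControl_slice libraries, where it was between -1.23 and -0.99.

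Of 28 epithelial proteases and protease inhibitors 5 were tested, and the cysteine protease inhibitors CST3 (0.99) and CSTB (0.92) rose with L1CAM shRNA. Over all tested genes 10.1% rose with L1CAM shRNA and 6.8% with control shRNA. With control shRNA they had 0.59 and 0.69, and 0 of the 5 passed by limma, with 1 at an unadjusted p under 0.05, 0 passing by edgeR and 1 by DESeq2. SPINT1, a matriptase inhibitor, had 57.2 and 67.8 normalized counts in shL1CAM_slice against 7.64 and 9.63 in shControl_slice, and 39.4 and 14.1 in shL1CAM_dish against 0.98 and 10.4 in shControl_dish. It was thus higher with L1CAM shRNA in each culture, by 2.72 on the slice and 2.38 in the dish, and passed in neither (limma adjusted p = 0.161 and 0.325 in that order). Between the shRNAs, over the 11 lists of related genes, 0 tested genes passed on the slice by limma (2 by edgeR, 7 by DESeq2). In the dish 1, IL8, passed by limma (2 by edgeR, 5 by DESeq2). At an unadjusted p under 0.05, limma found 18 on the slice and 16 in the dish. Over all 13010 genes, 0.646% passed on the slice and 0.307% in the dish by limma. By edgeR 86 and 77 passed, and by DESeq2 342 and 184, in that order. Limma found 2384 and 1217 of all genes at an unadjusted p under 0.05.

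Many slice calls of list genes were lost when 1 library was left out. Of the 22 fold changes with L1CAM shRNA named above or below that passed, 9 still passed without shL1CAM_dish replicate 1, 9 without replicate 2, and 17 in each fit without a control library. Of the 17 with control shRNA, 0 and 5 passed without shControl_dish replicate 1 and 2, and 1 without either shControl_slice library. Without either shL1CAM_slice library all 22 and all 17 passed, and without either shL1CAM_dish library 13 of the 17. With no filter 18 of the 22 and 12 of the 17 passed. CD24, which had 0.85 with a pseudocount of 10, and PTGES lay near the threshold with control shRNA and were not called by edgeR or with TMM scaling. The shL1CAM_slice libraries take no part in slice against dish with control shRNA, nor in the difference between the shRNAs in the dish. Calls of list genes made there without 1 of them rest on the spread shared by all groups. They are no result about the lists.

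Marker lists of other lung cell types did not rise together. Over all tested genes, 10.1% rose and 11.2% fell with L1CAM shRNA, and 6.8% and 8.03% with control shRNA. The alveolar type 1 list had 4 tested genes, of which 1 fell with L1CAM shRNA and 3 with control shRNA. Among them was the caveolar protein CAV1, chosen after its values were seen (-1.34 and -1.26). The alveolar type 2 list (4 tested) and the general epithelial list (4 tested) had 0 calls for slice against dish by limma, edgeR and DESeq2, and 0 genes at an unadjusted p under 0.05. With L1CAM shRNA 1 of 4 ciliated genes fell, 1 of 3 basal genes rose and 1 of 2 neuroendocrine genes rose, and with control shRNA 0 passed in each by limma, with 1, 1 and 0 genes at an unadjusted p under 0.05, and 0 by edgeR or DESeq2.

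Human genes that mark brain cell types were read beside the slice responses, because the slice holds mouse brain cells. The builds used were human (hg19 and GRCh37), so mouse RNA could be counted only through reads assigned to human genes. Low values thus do not bound the amount of mouse RNA. Summed over the genes low in the dish, the oligodendrocyte list (5 genes) had 14.3 to 27.7 normalized counts in shL1CAM_slice, 22.5 to 25.8 in shControl_slice, 0 to 2.75 in shL1CAM_dish and 0.94 to 0.98 in shControl_dish. The slice libraries were thus above the dish libraries. The sums here and below are over genes chosen for being low in the dish, which favours higher slice values. Of the 4 tested markers of the list 1 rose with each shRNA by limma, and 2 with control shRNA by DESeq2. With 5 of the 8 genes low in the dish and 4 tested, at least 1 tested marker entered through its slice libraries. Of the 8 listed, 2 (MOG and OLIG2) were at 0 in all 8 libraries. Elsewhere 1 of 8 tested markers in the neuron list rose with L1CAM shRNA. With control shRNA 0 of the 8 passed by limma, and 1 rose by edgeR and by DESeq2. At an unadjusted p under 0.05, limma found 2 of them with L1CAM shRNA and 3 with control shRNA. In the astrocyte list 1 of 4 fell with each shRNA. Over all tested genes, 10.1% rose and 11.2% fell with L1CAM shRNA, and 6.8% and 8.03% with control shRNA. GFAP and AQP4 of astrocytes were at or under 1.00 in every library.

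SLPI and LCN2 are also neutrophil genes, and most neutrophil markers had few reads. Of 12 listed, 1 was tested (ELANE) and did not pass for slice against dish by limma, edgeR or DESeq2, nor at an unadjusted p under 0.05, and 9 had at most 3 reads in every library. Over the 10 genes low in the dish the sum was 5.53 and 14.3 normalized counts in shL1CAM_slice, 4.77 and 3.21 in shControl_slice, 0 to 5.50 in shL1CAM_dish and 1.89 to 1.96 in shControl_dish. CAMP, chosen after its values were seen, gave 5.53 and 13.1 in shL1CAM_slice, 2.86 and 3.21 in shControl_slice and 0 in all 4 dish libraries. MPO and LTF were at or under 0.98. S100A12, a neutrophil calgranulin of the mucosal defence list and also chosen after its values were seen, had 10.1 and 16.7 in shL1CAM_slice, 1.91 and 1.07 in shControl_slice and 0 to 2.75 in the dish libraries, and S100A9, also abundant in neutrophils, is given below. The 9 microglia and macrophage markers low in the dish summed to 8.33 to 14.8 in shL1CAM_slice, 5.73 to 15.0 in shControl_slice, 10.1 to 16.1 in shL1CAM_dish and 6.60 to 14.7 in shControl_dish. The 6 endothelial and mural markers low in the dish summed to between 13.2 and 26.2 in every library. The limit of human builds holds for these markers too, and the part of these other cells in the levels of the 4 tested genes was not tested.

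Genes with the profile most like the mean profile of the 4 tested genes over the 8 libraries were C15orf62, TMEM63B, S100A9, CAMTA2, KCTD6, C21orf63, SMOX and DUSP22, with Pearson r between 0.988 and 0.996 among 11036 genes ranked. The libraries fall into dish and slice clusters, so r is a description of that split and of the order within it. S100A9, a calcium-binding subunit of calprotectin, had 14596 and 25809.9 normalized counts in shL1CAM_slice against 17392 and 16113 in shControl_slice, and 186 and 103 in shL1CAM_dish against 254 and 447 in shControl_dish. Like SLPI, S100A9 and the rest of these genes were lower in replicate 2 of shL1CAM_dish and higher in replicate 2 of shControl_dish. Their choice by r over the same libraries favours that order. Among the 4 tested genes, r between pairs ran from 0.82 (SLPI and SUSD2) to 0.96 (SLPI and FAM83A).

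Neighbours on the chromosome were read beside the 4 tested genes. Of the 24 genes up to 3 places on either side of them, 17 were tested, and with L1CAM shRNA 2 rose (PI3 beside SLPI, and DDT beside SUSD2) and 1 fell (WDR67 beside FAM83A), while with control shRNA PI3 rose and WDR67 fell. These are shares near those over all tested genes (10.1% rising and 11.2% falling with L1CAM shRNA, 6.8% and 8.03% with control shRNA), and so no result about neighbours. DDT and WDR67 were chosen after their values were seen.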

How the data were processed

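Messenger RNA bound to tagged ribosomes was purified, and libraries were made with a TruSeq RNA kit, per the labels' protocols. Per the submitters' processing notes, FastQC 0.11.3, HTSeq 0.5.4 and DESeq2 (no version) were used with the builds hg19 and GRCh37. The aligner is not given in the sources used here. The deposited table is a signal. Each library's values are its read counts over a single size factor, and 100% of values came out as whole reads within a tolerance of 1e-06. 0 columns were left unused. No coordinates of the files' build are printed. Promoters are RefSeq's (GRCh38.p14), and lengths of principal coding transcripts come from a later annotation, for 86.4% of tested genes.

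Log2(normalized count + 1) was fitted with limma 3.58.1 (R 4.3.3) with a mean for each of the 4 groups (eBayes, trend on), for 13010 genes with a mean of at least 10. P-values are two-sided, adjusted by Benjamini-Hochberg within each contrast, and called under 0.05. In simulated data for slice against dish with control shRNA (13010 genes), 100 genes were changed by 1 and 100 by 2 on the log2 scale. Of these, 75% and 97% were recovered in that order, with 8 false calls. All simulated libraries had 1 common spread. The real groups differed in spread, with the shL1CAM_slice replicates furthest apart, so these rates do not measure recovery in the real data. Alternatives were a pseudocount of 10, TMM scaling, tests of the recovered reads by DESeq2 1.42.0 and edgeR 4.0.16, a filter at 50 or none, a replicate block, and each library left out. The spread of a gene is estimated jointly over groups of 2 libraries, and a lone library is assumed to vary like the others.

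The 8 genes, the lists and the tests were chosen with earlier results of these data known. Named genes are L1CAM, the 8 genes, in each related list up to 4 genes with the smallest p on the slice with control shRNA, up to 3 and 2 between the shRNAs on the slice and in the dish, 10 cell markers, and the 8 genes most like the tested genes (mean of at least 50). SUSD5, CP and SLC22A17 and some others are named without values. The values of 1 listed marker gene are not reported here.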

Additional observations from a re-analysis of the deposited data

How the results depend on the processing

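Of 1152 recomputed fold changes of named genes, 4 changed sign, all of them in fits without 1 library and none called. With 1 library left out, MUC1 between the shRNAs in the dish ran from -0.18 to 0.11 (log2, without shL1CAM_dish replicates 1 and 2), SUSD2 there from -0.27 to 1.65 (the same libraries), SLPI between the shRNAs on the slice from -0.68 to 0.14 (without shL1CAM_slice replicates 2 and 1), and the difference between the slice responses of SUSD2 from -0.14 to 1.78 (without shL1CAM_dish replicates 2 and 1). A further 151 lost and 36 gained a call. Of the 4 tested genes, the number called with 1 library left out ran from 0 to 4 for the slice with control shRNA, from 0 to 1 between the shRNAs on the slice, from 0 to 2 between them in the dish, and from 0 to 2 for the difference between slice responses, and was 4 throughout for the slice with L1CAM shRNA. Where a contrast chose the genes, these counts are a description. It was 1 in the dish by DESeq2. The cause was not tested, beyond each such fit having 1 sample fewer. All genes called ran from 7 to 6109, 341 to 7503, 4 to 6896, 0 to 1437 and 0 to 4136 for the slice with control and L1CAM shRNA, the shRNAs on the slice and in the dish, and the difference.

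Other settings moved the counts over all genes by more than 1.5 times between the shRNAs. On the slice 84 became 15 with no filter, 40 with a mean of at least 50 and 342 by DESeq2. In the dish 40 became 62 with a pseudocount of 10, 16 with no filter, 14 with a mean of at least 50, 77 by edgeR and 184 by DESeq2.

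With a replicate block 4, 4, 0, 0 and 0 of the tested genes passed, as without it, and 1814, 2777, 85, 46 and 0 of all genes, in the same order of comparisons. The block kept 16 of the 17 named list calls on the slice with control shRNA (PTGES was lost) and 22 of 22 with L1CAM shRNA. The labels do not pair the numbers, and the correlation of replicate differences ran from -0.38 (both dish groups) to 0.19. Between the dish groups the replicate differences thus tended to run in opposite directions over the tested genes, and the cause was not tested. Depth limits LCN2, ELF3, WFDC2 and CEACAM6, for which 3 reads bound a count of 0.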
